A study of Homo sapiens with 6 samples.

Results

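The genes of pericellular proteolysis described here are the plasminogen activator genes PLAU and PLAT, the receptor gene PLAUR, the serpin gene SERPINE2, the metalloproteinase genes MMP7, MMP14 and MMP15 and the inhibitor genes TIMP1 and TIMP2. They are 9 of the 19775 genes named on the arrays, were listed by name for their role, and are read by 19 probe sets, each annotated to 1 gene. The samples come from HCA-7, a human cell line from colorectal cancer whose cells form spiky or cystic colonies in gels of type 1 collagen. The spiky isolate SC1 and the cystic isolate CC3 were grown in 3D collagen, and total RNA of the cell-containing layer was taken at day 5, 10 and 15 and put on Affymetrix U133 Plus 2.0 arrays. The 3 spiky and 3 cystic samples thus comprise 1 array per isolate and day, with no drug or genetic change named in the labels. Each colony shape is represented by 1 isolate, so shape and isolate cannot be told apart. The labels do not say whether the days were cultured separately, and the p-values therefore reflect the spread among these arrays alone, some of which may be technical.

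Plasminogen, a circulating zymogen, is cut to the broad protease plasmin by urokinase (PLAU), which is held at the cell surface by its receptor PLAUR, or by tissue plasminogen activator (PLAT). Serpins such as the product of SERPINE2, protease nexin-1, trap these activators and other serine proteases in a covalent complex. Matrix metalloproteinases are made as zymogens that plasmin, furin or one another can activate, and TIMPs block their active site. MMP7, or matrilysin, is a small secreted enzyme made by glandular epithelium and by colorectal adenomas and carcinomas, while MMP14 and MMP15 are anchored in the membrane and MMP14 cleaves fibrillar collagen.

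Values are log2 signals after RMA, a summary of the probes of a probe set after background correction and scaling, and array medians lay between 5.18 and 5.34. Precision is limited by how few arrays there are. Each gene is represented by its probe set with the highest mean, and the 12317 genes with a mean of at least log2 5 were tested, all 9 described here included. The epithelial genes EPCAM, CDH1, KRT8, KRT18, KRT19 and VIL1 averaged at least 7.26, but CDX2, CDH17, KRT20, LGALS4 and GPA33, which mark colonic epithelium, averaged at most 4.80. Of the 11 fibroblast markers 2 reached log2 5, COL1A1 and FBLN1, and the list mean was 3.995 to 4.11 on spiky and 3.94 to 4.16 on cystic arrays. Of 9 leukocyte markers with a probe set 4 reached it, LYZ at 9.12, CSF1R at 5.63, CORO1A at 5.44 and CD3D at 5.18. All 4 had lower fitted values in spiky than in cystic colonies (median difference -0.75), and 1, LYZ, was called. Among the dim ones PTPRC was at 2.95 and CD3E at 2.82. Of 7 endothelial markers 1 reached log2 5, CLDN5 at 6.33. In bulk samples fewer cells of a type and less RNA per cell cannot be told apart.

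All 9 genes had lower fitted values in spiky than in cystic colonies, and MMP7, SERPINE2, PLAU and PLAT passed the test. The median difference of the 9 was -0.48 on the log2 scale, against -0.03 over all tested genes, of which 55.1% had negative values. Limma, with culture day in the model and Benjamini-Hochberg adjustment at 0.05, called 4 of the 9 lower and 0 higher. The same test called 7.74% of all tested genes lower and 3.65% higher. The 3 spiky arrays lay below the 3 cystic arrays, without overlap, for MMP7, SERPINE2, PLAU and MMP14, as they did for 10.1% of all tested genes, while the reverse, seen for 5.5%, held for none of the 9. On each of the 3 days the spiky array was the lower for 8 of the 9 genes, TIMP2 being the exception. Of all tested genes 45.0% kept 1 sign on all 3 days, whether higher or lower, and the share that was lower throughout is not given here. The 9 genes were chosen with earlier results of these arrays known, so this count is a description of them.

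**Figure D1:**
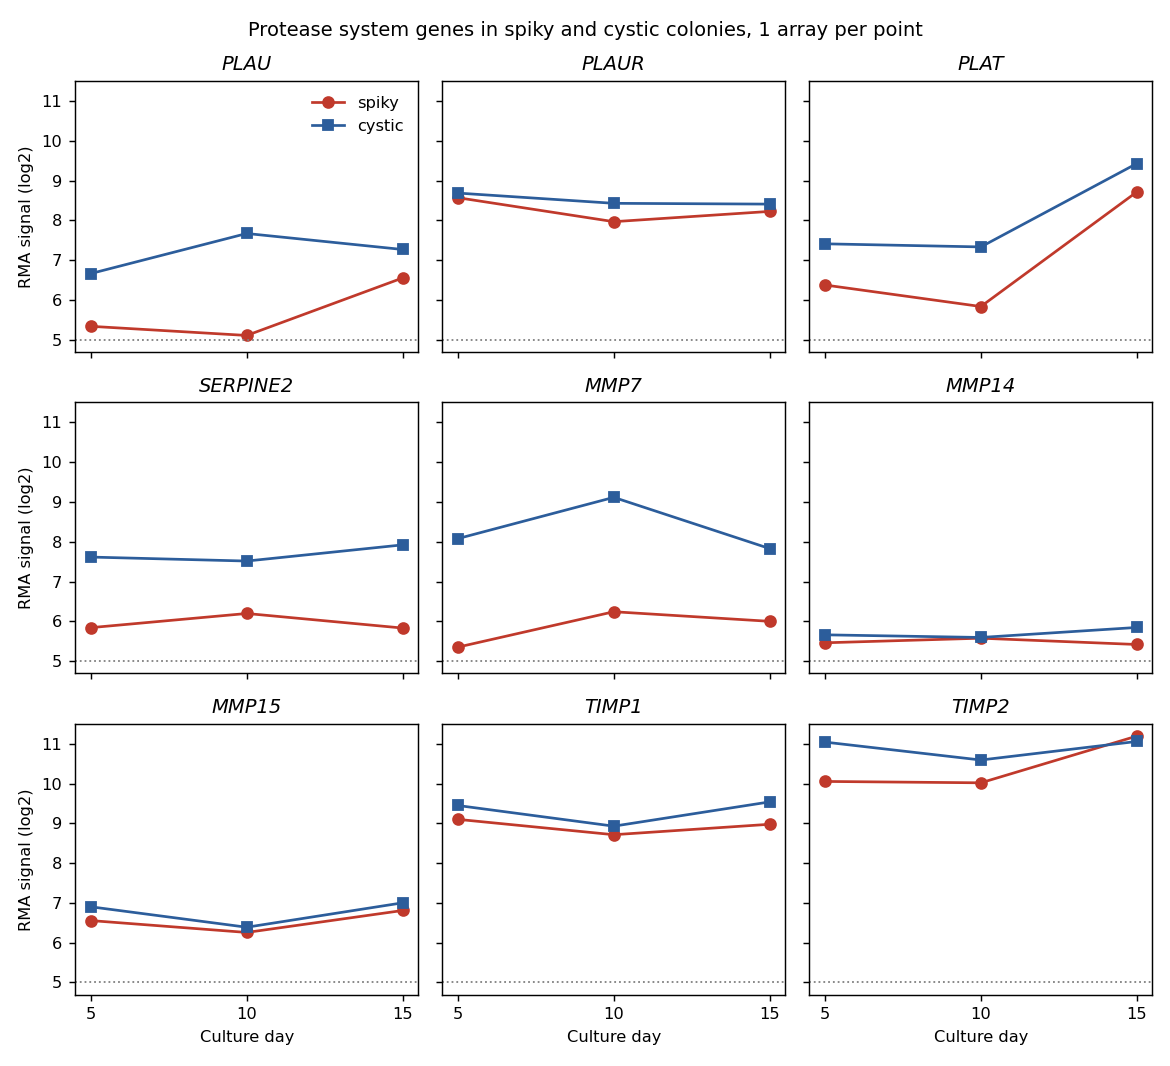
Log2 signal of the probe set that represents each gene against culture day (days), with spiky arrays as red circles, cystic arrays as blue squares, 1 array per point and a dotted line at log2 5. The spiky points of MMP7 lie between 5.35 and 6.24 and the cystic points between 7.83 and 9.12, while for TIMP2 the spiky point at day 15, 11.19, lies above the cystic one, 11.06.

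Among the activators, PLAU had signals of 5.34, 5.11 and 6.55 in spiky colonies at day 5, 10 and 15, against 6.66, 7.67 and 7.27 in cystic colonies. The day 15 spiky array came close to the lowest cystic array, that of day 5, but the groups did not overlap. PLAU was 2.90-fold lower in spiky colonies (log2 difference -1.53, SE 0.30, limma adjusted p = 0.0128). Leaving out either day 5 array kept the direction at -1.64 but lost the call, with adjusted p = 0.0719 without the cystic and 0.0734 without the spiky array. Leaving out either day 10 array gave -1.02. Such omissions are not separate checks, since without either array of a day the difference rests on the other days alone. PLAT had 6.38, 5.84 and 8.72 in spiky colonies at day 5, 10 and 15, against 7.41, 7.33 and 9.43 in cystic colonies. Both series climbed steeply at day 15, so that the groups overlapped across days although the spiky array was lower on each day. PLAT was 2.12-fold lower (log2 difference -1.08, SE 0.18, limma adjusted p = 0.00550), a call that rests on the day block in the model, since without it adjusted p = 0.830.

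The receptor gene PLAUR had 8.57, 7.97 and 8.23 in spiky colonies at day 5, 10 and 15, against 8.69, 8.43 and 8.41 in cystic colonies. Its groups overlapped, because the spiky array of day 5 was brighter than the cystic arrays of day 10 and 15. The difference of -0.25 had a 95% interval from -0.55 to 0.04 and did not pass (limma adjusted p = 0.276).

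SERPINE2 gave the steadiest separation of the serpin and activator genes, with 5.84, 6.20 and 5.83 in spiky colonies at day 5, 10 and 15, against 7.62, 7.52 and 7.92 in cystic colonies. The spiky mean was 5.96 ± 0.21 and the cystic mean 7.68 ± 0.21 (SD over the 3 days, 1 array each). The gap was far wider than the spread over days within either isolate, which is not a spread of replicates. The gene was 3.31-fold lower (log2 difference -1.73, SE 0.19, limma adjusted p = 0.000964). The gap was -1.77, -1.32 and -2.09 at day 5, 10 and 15. A second SERPINE2 probe set, 227487_s_at, lay near background, at 5.28, 3.74 and 4.30 in spiky and 5.01, 5.42 and 5.69 in cystic colonies. It was lower in spiky colonies at day 10 and 15 and slightly higher at day 5.

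MMP7 showed the widest gap of the 9 genes. It had 5.35, 6.24 and 6.0001 in spiky colonies at day 5, 10 and 15, against 8.08, 9.12 and 7.83 in cystic colonies. Every cystic array was brighter than every spiky array, and the spiky mean was 5.86 ± 0.46, the cystic mean 8.34 ± 0.68 (SD over the 3 days, 1 array each). The fitted difference was -2.48 (SE 0.21, 95% interval -2.96 to -1.99, limma adjusted p = 0.000371), which ranked 36 among the 12317 genes by p. The gap was -2.73 and -2.88 at day 5 and 10 and -1.83 at day 15.

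MMP14 had 5.46, 5.58 and 5.42 in spiky colonies at day 5, 10 and 15, against 5.66, 5.59 and 5.85 in cystic colonies, all close to background. The highest spiky array was just under the lowest cystic one. The difference was -0.22, with a 95% interval from -0.62 to 0.19 (limma adjusted p = 0.529). MMP15 had 6.56, 6.26 and 6.81 in spiky colonies, against 6.90, 6.39 and 7.0025 in cystic colonies. Its difference was -0.22, with a 95% interval from -0.59 to 0.14 (limma adjusted p = 0.454). For both genes a fall as large as that of PLAT lay outside the interval.

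The inhibitor TIMP1 had 9.10, 8.71 and 8.98 in spiky colonies at day 5, 10 and 15, against 9.45, 8.93 and 9.54 in cystic colonies. It was lower in spiky colonies on each day, but the groups overlapped, and the difference of -0.38 (95% interval -0.63 to -0.12) did not pass after adjustment (limma adjusted p = 0.0683). TIMP2 had 10.05, 10.02 and 11.19 in spiky colonies, against 11.04, 10.59 and 11.06 in cystic colonies. The gap was -0.99 at day 5 and -0.57 at day 10, and at day 15 the spiky array was the brighter by 0.14. Over the 3 days the difference was -0.48 and did not pass (95% interval -0.86 to -0.09, limma adjusted p = 0.118). Without either day 15 array it was -0.78 and passed, with limma adjusted p = 8.11e-05 without the cystic and 8.12e-05 without the spiky array. Without either day 5 array it was -0.22 (adjusted p = 0.590 without the cystic and 0.587 without the spiky array). The omissions of the same day rest on the same remaining days and are not separate checks.

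**Figure D2:**
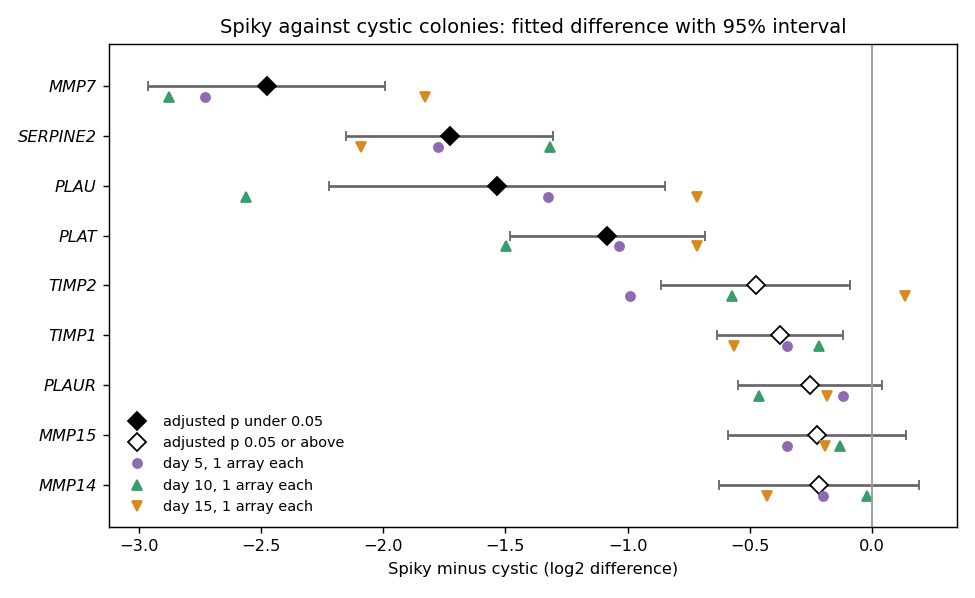
Log2 difference of spiky minus cystic colonies for the 9 genes, with diamonds for the fitted value, filled where the limma adjusted p was under 0.05, bars for its 95% interval and small coloured symbols for the difference on each day. MMP7, SERPINE2, PLAU and PLAT carry filled diamonds between -2.48 and -1.08, and the remaining 5 open diamonds lie between -0.48 and -0.22.

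The start regions of the 2 genes with the widest gaps are shown because their composition differs although both genes were lower in spiky colonies. They are the 250 bases before the RefSeq start on build GRCh38.p14, MMP7 at chr11:102530748-102530997 and SERPINE2 at chr2:224031479-224031728, both on the minus strand and written 5′ to 3′ along the gene. Capitals mark matches, on either strand, to the AP-1 motif TGANTCA, to an ETS core spelled AGGAAG, to the TATA box spelled TATAAA, and to the box that is named for its letters CCAAT, with the last base before the start counted as -1.
MMP7: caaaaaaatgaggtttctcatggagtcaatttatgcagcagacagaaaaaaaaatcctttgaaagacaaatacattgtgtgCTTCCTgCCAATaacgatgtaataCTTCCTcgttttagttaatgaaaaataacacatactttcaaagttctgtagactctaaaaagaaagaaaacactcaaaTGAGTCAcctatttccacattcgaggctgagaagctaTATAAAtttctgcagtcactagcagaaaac
SERPINE2: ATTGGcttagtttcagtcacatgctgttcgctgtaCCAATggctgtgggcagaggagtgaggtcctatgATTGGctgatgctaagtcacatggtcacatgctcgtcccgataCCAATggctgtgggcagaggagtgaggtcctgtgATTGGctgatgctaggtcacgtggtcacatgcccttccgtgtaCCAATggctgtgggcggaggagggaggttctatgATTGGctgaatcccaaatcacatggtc

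The MMP7 window held an AP-1 match at -67 to -61, ETS matches at -169 to -164 and -145 to -140, a TATA match at -30 to -25 and a CCAAT match at -162 to -158, none of which overlap. Of 27305 windows of this length 6.6% held the AP-1 motif, 28.7% the ETS motif, 11.1% the TATA motif and 33.0% the CCAAT box. The SERPINE2 window held 7 CCAAT matches and none of the other 3 motifs, and 7 or more CCAAT matches were found in 6 of the 27305 windows (0.022%). The 7 are not independent, since a similar stretch recurs along the window. In it CCAAT, starting at -215, -138 and -61, is followed by its reverse complement ATTGG, starting at -181, -104 and -27. A TCF motif, searched only as CTTTGAT and present in 2.28% of windows, was in 0 of the 7 members' windows that the table holds. Other spellings were not searched, among them CTTTGAA, which the MMP7 window printed above contains. PLAT and TIMP2 had no window in that table, so no motif was searched for in them. PLAUR held AP-1 and ETS matches, TIMP1 an ETS match, and PLAU, MMP14 and MMP15 a CCAAT match each. The motifs were chosen for this description, the table gives 1 start per gene, and a match describes the letters only.

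The probe sets of a gene mostly moved alike in this comparison, and 14 of the 19 reached a mean of log2 5. With each such probe set tested on its own, 4 of the 14 were called lower and 0 higher, those that represent MMP7, SERPINE2, PLAU and PLAT, while 6.01% of all 29468 probe sets were called lower and 3.14% higher. The 3 PLAUR probe sets gave -0.25, -0.36 and -0.40, and the 3 TIMP2 probe sets -0.36, -0.42 and -0.48, with adjusted p from 0.111 to 0.290 in limma. MMP14 was the exception among the bright ones, since 217279_x_at, a type of probe set that can detect related sequences, gave 0.18 where 202828_s_at gave -0.22. The second probe set of PLAU, 211668_s_at, lay between 2.96 and 3.59 on all 6 arrays, so PLAU rests on 1 probe set with a mean of at least log2 5, as do SERPINE2, PLAT, MMP7, MMP15 and TIMP1.

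**Figure D3:**
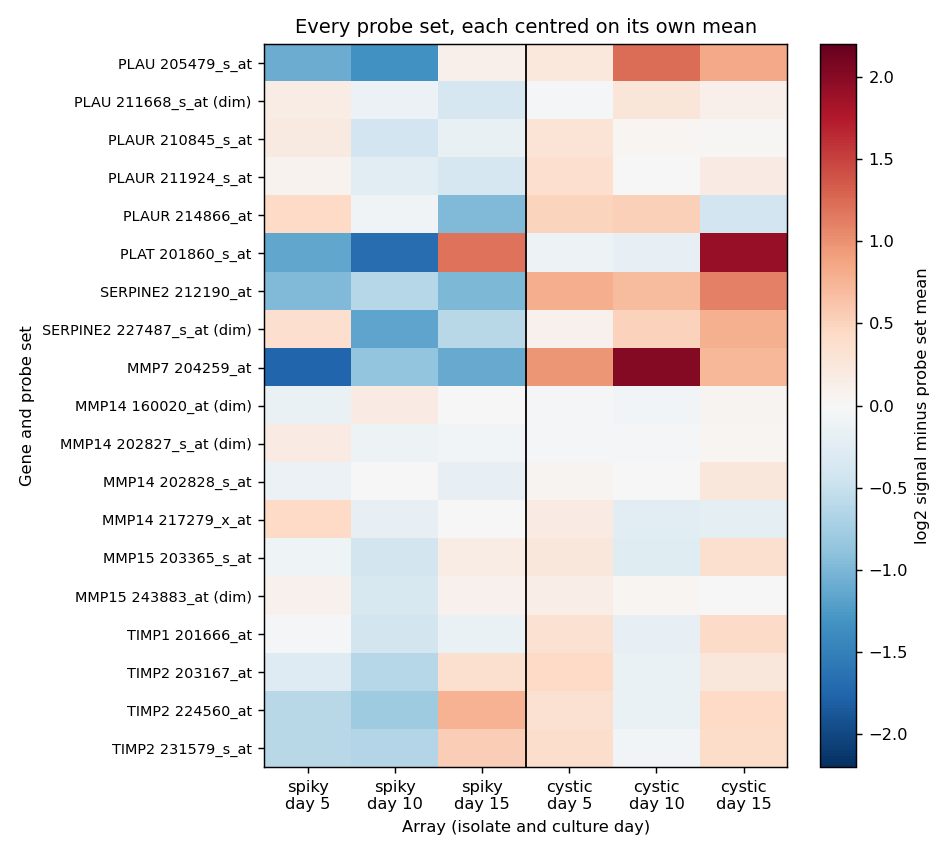
Log2 signal of each of the 19 probe sets on the 6 arrays minus that probe set's own mean (colour, from -2.2 in blue to 2.2 in red), with spiky arrays left of the black line and dim marking a mean under log2 5. The MMP7 row and the upper SERPINE2 row are blue on all 3 spiky arrays and red on all 3 cystic ones, and the PLAT row is red on both day 15 arrays.

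The 9 genes are spread over 9 chromosomes. PLAU is on chromosome 10, PLAUR on 19, PLAT on 8, SERPINE2 on 2, MMP7 on 11, MMP14 on 14, MMP15 on 16, TIMP1 on X and TIMP2 on 17. The 20 nearest tested genes around each had median differences between -0.18 and 0.07. For MMP7 these neighbours ran from -0.37 to 0.44, and for SERPINE2 and PLAU the lowest neighbours were at -1.08 and -0.99, so these 3 genes lay below all of theirs, as did TIMP2, whose lowest neighbour was at -0.38. Around PLAT the lowest neighbour, at -1.56, was lower than PLAT itself.

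Over culture time the activator PLAT changed most, and its change fell in the late step. At day 15 it was 4.53-fold higher than at day 5 (log2 difference 2.18, SE 0.22, limma adjusted p = 0.000541), and it was the 1 gene of the 9 to pass between these days. TIMP2, at 0.58 (adjusted p = 0.0635), passed without the cystic array of day 5 (0.96), day 10 (0.58) or day 15 (1.04) and without the spiky array of day 10 (0.58), with adjusted p from 4.15e-05 to 0.0287. It was 0.19 (adjusted p = 0.634) without the spiky array of day 5 and 0.12 (adjusted p = 0.538) without that of day 15. Limma called 32.3% of all tested genes between day 15 and day 5, 10.4% higher and 21.9% lower; after median centring 76.4% and after cyclic loess scaling 55.1% of the called genes were lower, against 67.7% as deposited. From day 10 to day 15 PLAT rose by 2.88 in spiky and by 2.10 in cystic colonies (fitted 2.49, SE 0.22, limma adjusted p = 0.000660), whereas from day 5 to day 10 it changed by -0.54 in spiky and -0.08 in cystic colonies. By p it ranked 20 among the 12317 genes for the late step.

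TIMP2 was the other gene to pass in the late step, in which 2 of the 9 were called higher and 0 lower, against 8.66% and 14.0% of all tested genes (22.6% in either direction). It rose by 1.18 in spiky and by 0.47 in cystic colonies between day 10 and day 15 (fitted 0.82, SE 0.21, limma adjusted p = 0.0234). The call was lost without the spiky array of day 10 (0.75, adjusted p = 0.0734) or of day 15 (0.36, adjusted p = 0.0645), and the value was 1.28 (adjusted p = 1.2e-05) without the cystic array of day 15. All 3 TIMP2 probe sets rose in that step, by 0.69, 0.82 and 1.06. TIMP1 and MMP15 dipped at day 10 in both isolates: TIMP1 changed by -0.39 and then 0.26 in spiky and by -0.52 and then 0.61 in cystic colonies, and MMP15 by -0.30 and 0.55 in spiky and -0.51 and 0.61 in cystic colonies. Neither step of these 2 genes passed (limma adjusted p from 0.0524 to 0.409). The late step of TIMP1 passed under 4 of 15 alternatives. Among them were each gene as the mean of its bright probe sets (limma adjusted p = 0.0434), cyclic loess scaling (0.0280) and a robust variance prior (0.0469). That of MMP15 passed under 1 of 15, the mean of bright probe sets (limma adjusted p = 0.0398). Without the spiky array of day 15 the late step of TIMP1 was 0.58, and without the cystic one 0.30.

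The course of MMP7 and PLAU was another. MMP7 was highest at day 10 in both isolates, 0.89 above day 5 in spiky and 1.04 above it in cystic colonies, with a fitted difference of 0.96 (SE 0.26, limma adjusted p = 0.225). In that early step limma called 2 of the 12317 genes (0.0162%) and 0 of the 9. At an unadjusted p under 0.05 it had 1658 of the 12317 genes and 3 of the 9, MMP7, TIMP1 and PLAUR, at 0.00524, 0.00998 and 0.0240. Without either day 15 array MMP7 passed, with adjusted p = 0.0172 without the cystic and 0.0125 without the spiky array, as did TIMP1, at -0.45 with 0.0472 and 0.0430. In the late step MMP7 was at -0.77 (adjusted p = 0.0671), at -1.25 (adjusted p = 0.00271) without the spiky array of day 15, at -0.28 (adjusted p = 0.464) without the cystic array of day 15 and at -0.47 (adjusted p = 0.435) without that of day 10. PLAU moved in opposite senses in the isolates, by -0.23 and then 1.45 in spiky and by 1.01 and then -0.40 in cystic colonies. At day 15 it was higher than at day 5 in both, by 1.22 in spiky and 0.61 in cystic colonies (fitted 0.91, SE 0.37, limma adjusted p = 0.0916). This passed without the cystic array of day 10 (0.91, adjusted p = 0.0118) or day 15 (1.53, adjusted p = 0.00446) and without the spiky array of day 10 (0.91, adjusted p = 0.0107), and was 0.30 (adjusted p = 0.589) without the spiky array of day 15. Its late step of 0.52 (adjusted p = 0.351) passed without the cystic array of day 10 (1.29, adjusted p = 0.0223) or day 15 (1.14, adjusted p = 0.0283), and turned negative without the spiky array of day 10 (-0.25, adjusted p = 0.704) or day 15 (-0.09, adjusted p = 0.898).

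**Figure D4:**
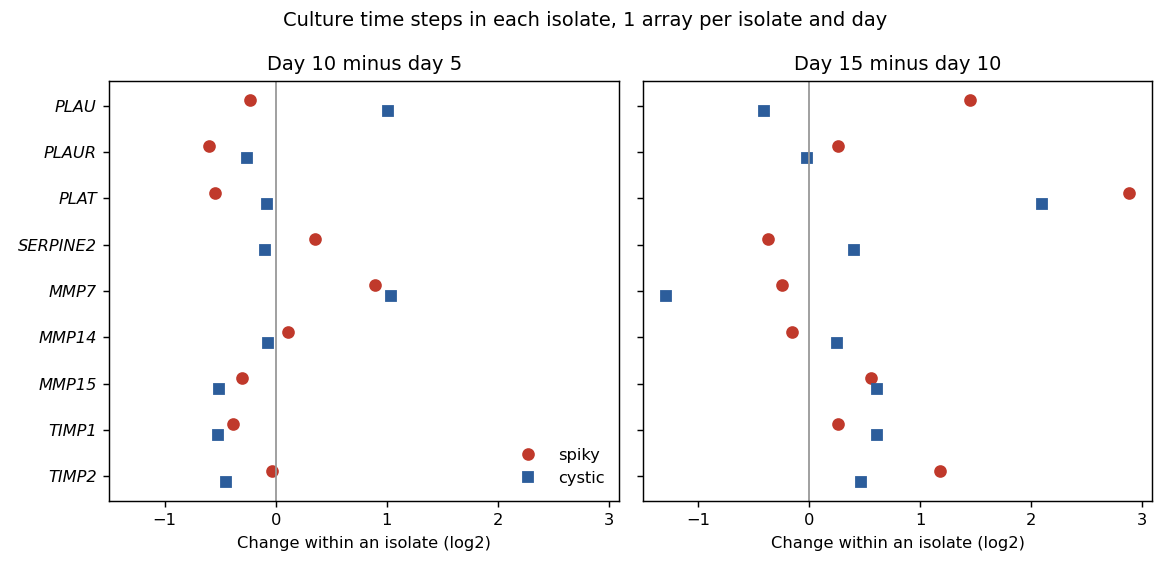
Change of the log2 signal within each isolate from day 5 to day 10 (left panel) and from day 10 to day 15 (right panel), with spiky colonies as red circles and cystic colonies as blue squares, 1 array per isolate and day. PLAT stands out in the right panel with 2.88 in spiky and 2.10 in cystic colonies, whereas PLAU lies on opposite sides of 0 in both panels.

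The probe sets of PLAUR differed over time. Its representative, 210845_s_at, differed by -0.31 between day 15 and day 5 (limma adjusted p = 0.169), and 211924_s_at by -0.32. The third, 214866_at, had 6.88, 6.37 and 5.47 in spiky colonies at day 5, 10 and 15 and 6.93, 6.97 and 6.01 in cystic colonies. With every probe set tested it fell by 1.16 between day 5 and day 15 (SE 0.23, limma adjusted p = 0.00486), where 16.6% of probe sets were called lower and 12.9% higher. SERPINE2 and MMP14 did not pass, at 0.15 (95% interval -0.37 to 0.67) and 0.07 (95% interval -0.43 to 0.57) between day 15 and day 5.

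The 3' minus 5' signal of the ACTB control, a sign of RNA integrity, also shifted with time, at 2.73, 2.74 and 3.10 on the spiky arrays of day 5, 10 and 15 and 2.83, 3.18 and 3.28 on the cystic arrays. That of GAPDH was 0.60, 0.63 and 0.49 on spiky and 0.65, 0.79 and 0.63 on cystic arrays. Both were lower on the spiky than on the cystic array of each day, so they also moved with the isolate. The collagen gene COL1A1, from the fibroblast list, rose by 1.38 between day 5 and day 15 (limma adjusted p = 0.00203), and FBLN1 was at 0.21 (adjusted p = 0.486), while DCN, LUM and PDGFRA averaged at most 3.34. LYZ, from the leukocyte list but also a product of secretory epithelium, was lower in spiky colonies (-1.34, adjusted p = 0.000236) and higher at day 15 (1.51, adjusted p = 0.000298), as PLAT was. The part of any of these in the results on the 9 genes was not tested.

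The course over the days was compared between the isolates by the difference in slope, spiky minus cystic, per 10 days. Limma called 0 of the 9 and 0 of all 12317 genes (0.0%), and at an unadjusted p under 0.05 it had 0 of the 9 and 309 of all. TIMP2 had the smallest unadjusted p of the 9, 0.0654, with a slope difference of 1.12 (95% interval -0.09 to 2.34), and its other probe sets gave 0.82 and 1.27. With 1 array left out it ran from -0.09 without the spiky array of day 15 to 2.33 without that of day 5, and the slope difference of each of the 9 genes changed sign when some array was left out. The remaining slope differences ran from -0.32 for SERPINE2 to 0.90 for MMP7, each with an interval that held 0. The intervals were wide, PLAT's running from -2.68 to 3.32, so that large differences in course could not be detected with these arrays.

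Other genes of the plasminogen system did not share a direction between the isolates. Of 17 listed genes 13 were analysed here and 12 were bright enough to test, of which 2 rose and 1 fell in spiky colonies (median -0.07). Of all tested genes 3.65% were called higher and 7.74% lower in this comparison. S100A10, which with annexin A2 forms a plasminogen receptor at the cell surface, was 2.31-fold lower, at 10.60, 9.97 and 9.11 in spiky against 11.54, 11.13 and 10.64 in cystic colonies at day 5, 10 and 15 (limma adjusted p = 0.000463). Its partner ANXA2 was at -0.09 (adjusted p = 0.268). The plasminogen receptor gene PLGRKT rose by 0.97 (adjusted p = 0.00494), on chromosome 9 where its 20 neighbours had a median of 0.90. PLG, which encodes plasminogen, rose by 0.88 (adjusted p = 0.00949) on 1 of its 3 probe sets, the others lying below log2 5. Between day 5 and day 15 none rose and 3 fell, S100A10 at -1.20, the serpin SERPINB8 at -1.496 and ANXA2 at -0.21. Of all tested genes 10.4% were called higher and 21.9% lower between these days.

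Of the 19 other metalloproteinases 15 averaged below log2 5, among them the collagenases MMP1, MMP8 and MMP13 and the gelatinases MMP2 and MMP9. Some arrays exceeded log2 5, with MMP1 at 5.57 on the spiky array of day 5, against 3.38 on the cystic one. On cystic arrays MMP10 reached 5.15 and MMP25 5.04. Of the 4 tested 0 passed between the isolates, against 11.4% of all tested genes. MMP24 was nearest at 0.56 (limma adjusted p = 0.0588), and MMP19 was at least 2.04-fold higher at day 15 than at day 5 (adjusted p = 0.00513). Among 10 genes that regulate metalloproteinases 2 fell in spiky colonies and 0 rose (median -0.10), against 7.74% and 3.65% of all tested genes. The matrix-bound inhibitor TIMP3 was at least 2.11-fold lower, taking spiky arrays under log2 5 as 5, with 4.65, 4.94 and 5.37 in spiky against 6.21, 5.62 and 6.77 in cystic colonies (adjusted p = 0.00782). FURIN, the convertase that activates membrane-type enzymes, was 1.68-fold lower (adjusted p = 0.0163) on chromosome 15, where its 20 neighbours had a median of -0.53. FURIN rose by 0.93 between day 5 and day 15 and the membrane-anchored inhibitor gene RECK by 0.50 (adjusted p = 0.00670 and 0.00901).

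In the ADAM family 3 of 9 tested genes fell in spiky colonies and 0 rose (median -0.32), against 7.74% and 3.65% of all tested genes. ADAM28 was at least 3.35-fold lower, ADAM22 was 2.13-fold lower and ADAM19 was lower with its spiky array of day 5 under log2 5 (limma adjusted p = 0.00344, 0.00403 and 0.00458). At day 15 ADAM19 was at least 2.19-fold higher than at day 5, ADAM10 and ADAM17 were higher by 0.51 and 0.56, and 0 were lower. Of all tested genes 10.4% were called higher and 21.9% lower between these days. Of 20 epithelial serine proteases and their inhibitors 9 fell and 1 rose in spiky colonies (median -0.29), against 7.74% and 3.65% of all tested genes. SERPINA1, alpha-1 antitrypsin, had 4.81, 4.56 and 7.82 in spiky against 8.24, 7.85 and 9.43 in cystic colonies at day 5, 10 and 15, at least 5.92-fold lower (adjusted p = 0.00111), and it was higher at day 15 than at day 5 (adjusted p = 0.00418), as PLAT was. SERPINB5, maspin, was 2.27-fold lower in spiky colonies and fell by 1.27 over time, and the secreted protease HTRA1 was 1.71-fold higher. TMPRSS3, at -2.14, and TMPRSS2, under log2 5 on all 3 spiky arrays, lie on chromosome 21 among neighbours with medians of -0.64 and -0.65.

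Of 14 tested cathepsins and their cystatin inhibitors 8 fell and 0 rose in spiky colonies, against 7.74% and 3.65% of all tested genes. Their median was -0.50, against -0.03 over all tested genes. The lysosomal cysteine proteases CTSS and CTSV were at least 1.67-fold and 1.86-fold lower (limma adjusted p = 0.00271 and 0.00332). CTSH and CSTB, also lower, lie on chromosomes 15 and 21 among neighbours with medians of -0.41 and -0.52. The neighbours of CTSV on chromosome 9 had a median of -0.31, and those of CST1 and CST3 on chromosome 20 had -0.33. For the other called genes, CTSS, CTSD and CST6, the neighbour medians were -0.06, -0.14 and 0.09. Between day 5 and day 15 5 fell and 1 rose, against 21.9% and 10.4% of all tested genes. CTSB was higher by 0.58, and CTSC and the cystatin CST6 fell by 1.06 and 1.16.

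**Figure D5:**
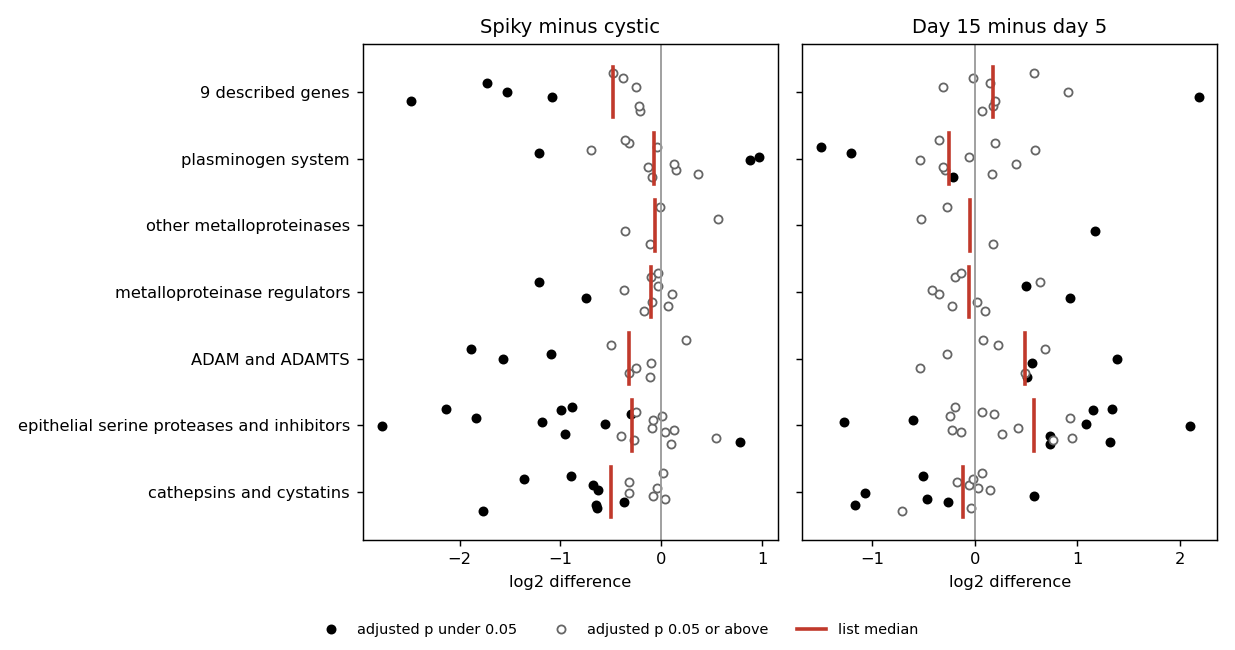
Log2 differences of spiky minus cystic colonies (left panel) and day 15 minus day 5 (right panel) for the tested genes of each list, with filled points for limma adjusted p under 0.05, open points for the rest and a red bar at each list's median. The medians on the left run from -0.50 for cathepsins and cystatins to -0.06 for the other metalloproteinases.

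The genes with profiles most like those of the members were sought among all tested genes, after each was centred on its own mean, by the root mean square difference over the 6 arrays in log2 units. For MMP7 these were the chemokine gene CXCL3 (0.42), ZNF600 (0.44) and the kinase gene DAPK1 (0.45). CXCL3 also peaked at day 10 in both isolates, with 5.46, 5.83 and 5.38 in spiky and 8.60, 9.55 and 8.05 in cystic colonies. For SERPINE2 they were CTHRC1 (0.22), the adaptor gene GRB10 (0.22) and TBX5 (0.23). For PLAU they were GIMAP2, the kinase gene MAP3K1 and the phosphatase gene DUSP10 (0.25 to 0.31), for PLAT the thioredoxin-binding protein gene TXNIP, TCEA3 and the transcription factor gene BHLHE40 (0.29 to 0.32), and for TIMP2 PLSCR4, TRAPPC6A and MAGED2 (0.08 to 0.09). Among the 9 genes TIMP1 and MMP15 were closest, at 0.14, and MMP7 and PLAT farthest apart, at 1.51. Profiles were not scaled to equal spread, so genes that vary little come out close to one another. The SD over the 6 arrays was 0.32 for TIMP1 and 0.30 for MMP15, against 1.45 for MMP7 and 1.36 for PLAT. The arrays share isolates and days, and 6 arrays allow many genes to come this close.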

How the data were processed

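Total RNA of HCA-7 colonies was measured on 6 arrays, and the deposited values are log2 signals made with RMA, per the submitters' processing notes, with version and settings not given in the sources used here. The table holds 54675 probe sets with 0 missing values. Gene names came from the array platform's annotation and were brought up to date through gene IDs in the RefSeq table of GRCh38.p14. Of the probe sets 41097 had 1 symbol, 1801 several and 11777 none. Arrays carry no read depth.

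With limma 3.58.1 under R 4.3.3, linear models took in the 12317 genes with a mean of at least log2 5, each as its brightest probe set, with colony shape and culture day as factors and variances moderated along the intensity trend, which left 2 residual degrees of freedom. All p-values are two-sided and were adjusted by Benjamini-Hochberg over every gene tested, with a threshold of 0.05. Slopes used day as a number and its product with shape. Folds set arrays of the dimmer group under log2 5 to 5. The fit was tested on simulated data. Culture day is a factor of the design: arrays of the same day deviated together from their group means (correlations of 0.608, 0.496 and 0.719 across genes for day 5, 10 and 15).

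The 9 members and the 7 other gene lists were chosen with earlier results of these data known. Each list was to give, for both main comparisons, the genes of smallest p, up to 2 that rose and 2 that fell, or the largest difference where none passed; further genes were named for their place on a chromosome, their role beside a member or a low count, after their values were seen. Likeness was computed for members with an SD of at least 0.5, with 3 genes each. Alternatives covered the filter, the probe set per gene, the unit tested, scaling of the arrays, how variances are moderated, the day block and leaving out each array. Figures were drawn with matplotlib 3.10.9.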

Additional observations from a re-analysis of the deposited data

Results flagged for a closer look

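For 4 of the 9 genes the change between day 5 and day 15 had opposite signs in the isolates, each on 1 array per isolate and day. The share of all tested genes with opposite signs is not given here, and several of these changes were close to 0. SERPINE2 changed by -0.0102 in spiky and by 0.31 in cystic colonies, MMP7 by 0.65 in spiky and by -0.25 in cystic colonies, MMP14 by -0.0425 in spiky and by 0.19 in cystic colonies, and TIMP1 by -0.12 in spiky and by 0.0908 in cystic colonies. The difference between the 2 arrays of each change was not itself tested, and the slope differences over 3 days, at -0.32, 0.90, -0.23 and -0.21 per 10 days in the same order, had limma adjusted p of 0.999 each. The SEs of those slope differences ran from 0.47 to 0.89.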

How the results depend on the processing

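Spiky against cystic colonies was recomputed under 16 alternatives, and the day and slope comparisons under 15. Of the 144 values for spiky against cystic colonies 137 kept their side of the threshold, 1 of them with the sign turned (MMP14, 0.18 from its most variable probe set), 5 lost and 2 gained the call. Leaving out the spiky or the cystic array of the same day gave the same difference between the isolates, so these values are not all separate checks. The 4 genes called there were 2 with no day block, in which PLAU had adjusted p = 0.204 and PLAT 0.830, and 3 to 5 when an array was left out. A single variance prior also lost PLAU (adjusted p = 0.0642). Over all genes 1403 were called, against 2698 probe sets with every probe set tested, 691 with a single variance prior, 72 with no day block and 507 to 2157 with an array left out. Between day 10 and day 5 the count of the 9 was 0 to 2 with an array left out, and that of all genes, 2, became 0 with no filter or with one variance prior, 70 with the most variable probe set, 1 with the mean of bright probe sets, 134 with every probe set, 11 with a robust prior and 0 to 469 with an array left out.

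Between day 15 and day 10, 2 of the 9 were called, against 1 with no filter or one variance prior, 4 with the mean of bright probe sets and 1 to 3 with an array left out; TIMP2 lost its call with no filter (0.0516), one variance prior (0.103) and a robust prior (0.0568). Over all genes 2786 were called, against 5251 with every probe set, 1444 with one variance prior and 1019 to 3577 with an array left out. Of 135 values 13 had another sign, those of PLAU, PLAUR, SERPINE2 and MMP14; PLAUR alone passed there, at -0.92 from the most variable probe set, 214866_at, against 0.12. Signs also differed in 7 of 135 values for day 10 against day 5, 9 for day 15 against day 5 and 17 for the slope, none of them past the threshold. Between day 15 and day 5, 1 of the 9 was called, against 3 with the most variable or with every probe set, 2 with the mean of bright probe sets or cyclic loess and 1 to 3 with an array left out. Over all genes 3982 were called, against 8708 with every probe set and 761 to 4318 with an array left out. The slope gave 0 genes, and 0 to 33 with an array left out, the 33 without the spiky array of day 5. Among called genes, 67.9% were lower in spiky colonies, 55.5% after median centring, and 61.7% were lower at day 15 than at day 10, against 73.0% after median centring and 50.5% after loess. The median of all genes between day 15 and day 5 was -0.11, and -0.20 after centring and -0.05 after loess. The causes were not tested. With 2 residual degrees of freedom and 1 array per isolate and day, small differences cannot be detected, and genes near log2 5 are read close to background.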

Other observations

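Genes for the matrix that these enzymes can cut were tested as a further list. Of 18 listed genes 9 were tested, of which 2 rose and 0 fell in spiky colonies, with a median of -0.15. In this comparison 3.65% of all tested genes were called higher and 7.74% lower. The 2 that rose were VCAN and LAMC1. VCAN, the large proteoglycan versican, was at least 18.3-fold higher (limma adjusted p = 7.54e-06) with every cystic array under log2 5. LAMC1, the laminin gamma-1 chain, had 9.93, 9.96 and 9.97 in spiky against 8.96, 8.72 and 8.43 in cystic colonies at day 5, 10 and 15. Its 3 spiky values hardly moved while the cystic values dropped with each day, and the difference of 1.25 passed in limma (SE 0.13, adjusted p = 0.000674). Between day 5 and day 15 LAMA5, a basement membrane laminin chain, rose by 1.32, and SDC1, the cell surface proteoglycan syndecan-1, fell by 0.99 on the log2 scale (adjusted p = 0.00171 and 0.00352).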
